A study of Homo sapiens with 6 samples.

Results

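The nuclear-encoded genes of oxidative phosphorylation were examined in MDA-MB-231 cells, an established human triple-negative breast cancer line, after treatment with SCH, an aqueous extract of the herb Salvia chinensis Benth. Members were all protein-coding genes outside the mitochondrial genome whose symbols begin with NDUF, UQCR, COX4 to COX8 or ATP5, or are SDHA, SDHB, SDHC or SDHD. The rule took 99 of the 58735 genes in the table and used no measured value. The 6 samples were poly(A) RNA-seq libraries of the line labelled wild type, with 3 vehicle samples and 3 samples given SCH at 100 mg/l for 24 h. Both groups share the line, the kit and the time point, and no transgene or knockout was involved. The line is a single culture model with no stroma, and the labels do not say whether the 3 samples of a group came from separate cultures, so p-values measure only the spread between these samples, which may be technical.

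Oxidative phosphorylation is carried out in the inner mitochondrial membrane. Complexes I and II pass electrons from NADH and succinate to coenzyme Q, complex III passes them to cytochrome c, and complex IV reduces oxygen with them, while complexes I, III and IV pump protons that drive ATP synthase, complex V. Most subunits are encoded in the nucleus and imported, and they are put together with core subunits from mitochondrial DNA by dedicated assembly factors. MDA-MB-231 cells are known for strong glycolysis alongside working mitochondria.

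The samples held 20291379, 18714240 and 18334857 gene counts for vehicle and 16836369, 17979434 and 18414924 for SCH. The members held 0.923, 0.915 and 0.887% of these counts in the vehicle samples and 0.874, 0.879 and 0.904% in the SCH samples, so the groups overlapped in this share. Markers fitted the label of the line: VIM stood at 1406 ± 23.1 CPM (counts scaled to the size of the library, mean ± SD, n = 3) in vehicle, CD44 at 999.7 ± 31.2 and AXL at 1562 ± 38.4, while ESR1, PGR and CDH1 were at or under 0.257 CPM on average. SPARC, another mesenchymal marker, was near 0 in all 6 samples. Of 9 blood, endothelial and fibroblast markers, COL1A1 was the most abundant, at 4.89 CPM in vehicle and 8.28 in SCH. PTPRC fell from 1.99 to 0.29 CPM, and CD3E and DCN were at or near 0. The luminal markers FOXA1 (4.10 to 9.18 CPM) and ERBB2 (71.3 to 87.3 CPM) rose and GATA3 (13.7 to 7.91 CPM) fell. VIM, AXL and CAV1 fell with SCH, VIM to 956.5 ± 19.7 CPM. The part of these shifts in the results below was not tested.

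Short sequences from the promoters of the members that the results turn on are shown first. The first set gives 120 bases ahead of the annotated gene or of its RefSeq start, whichever lies further upstream. It covers the largest fall (ATP5MC1), the largest rise of a well-counted member (NDUFAF1) and the 2 largest falls among members whose symbols begin with NDUFAF. The second set gives 30 bases around a match to the binding letters of 3 activators of these genes, for members that fell (ATP5F1C, ATP5PO, ATP5PF, NDUFA9, NDUFAF5, UQCRFS1), rose (NDUFA8, COX6A1) or did not pass the test (SDHA, UQCRC1). The letters were GCGCA and GCGC with any base between them for NRF1, CCGGAAG for GABPA and other ETS factors, and AAGATGGCG for YY1, on either strand; matches are in capitals, matches to the same letters can overlap, and CCGGAAG can share its last 3 bases with AAGATGGCG. All are RefSeq sequences of GRCh38.p14, read 5′ to 3′ on the gene's strand.
ATP5MC1, chr17:48892645-48892764, plus strand: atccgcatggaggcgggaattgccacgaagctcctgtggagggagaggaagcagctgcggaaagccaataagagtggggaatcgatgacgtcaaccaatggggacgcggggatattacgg
NDUFAF1, chr15:41402520-41402639, minus strand: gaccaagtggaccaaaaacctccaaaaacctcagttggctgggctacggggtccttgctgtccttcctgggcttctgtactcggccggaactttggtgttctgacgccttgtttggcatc
NDUFAF2, chr5:60945009-60945128, plus strand: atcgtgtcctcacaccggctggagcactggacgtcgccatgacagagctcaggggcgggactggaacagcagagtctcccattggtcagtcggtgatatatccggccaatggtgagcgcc
NDUFAF4, chr6:96897892-96898011, minus strand: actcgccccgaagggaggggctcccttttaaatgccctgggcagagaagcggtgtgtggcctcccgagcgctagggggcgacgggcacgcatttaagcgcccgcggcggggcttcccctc
ATP5F1C, chr10:7788145-7788174, plus strand: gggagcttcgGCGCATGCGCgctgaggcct
ATP5PO, chr21:33915809-33915838, minus strand: acgccaacgcGCGCGTGCGCccttgcgcgt
ATP5PF, chr21:25735092-25735121, minus strand: aggcgaagaaAAGATGGCGgaggctgtgcc
NDUFA9, chr12:4649024-4649053, plus strand: ttcttggttaGCGCTTGCGCagacaggcga
NDUFAF5, chr20:13785014-13785043, plus strand: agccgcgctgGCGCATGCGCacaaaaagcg
UQCRFS1, chr19:29213163-29213192, minus strand: gcgcctcctcGCGCCTGCGCcgtggttgga
NDUFA8, chr9:122159764-122159793, minus strand: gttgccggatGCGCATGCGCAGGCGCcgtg
COX6A1, chr12:120438086-120438115, plus strand: ttccacttccgCTTCCGGcgctgcggcagt
SDHA, chr5:218144-218173, plus strand: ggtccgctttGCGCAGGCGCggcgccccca
UQCRC1, chr3:48609674-48609703, minus strand: gtacggtactGCGCCTGCGCcgcgaccgcc

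Of the 99 members, 88 passed the filter on low counts and were tested. SCH lowered 35 of them and raised 8, and 45 did not pass the test (edgeR quasi-likelihood test, Benjamini-Hochberg adjusted p under 0.05 over 14736 genes). Across all tested genes, 58.7% were called, 29.4% lowered and 29.3% raised, and of the tested members 48.9% were called. Their changes were modest: the median log2 fold change was -0.10, against -0.0034 over all tested genes, and the called members had a median size of 0.29, against 0.46 over all called genes. Only 6 called members had an absolute log2 fold change of 0.5 or more and 0 had one of 1 or more, where 26.8% and 8.77% of all genes were called at these sizes. In 33 members every SCH sample lay below every vehicle sample and in 8 every SCH sample lay above; over all genes 31.3% lay below and 31.1% above (62.4% in all). DESeq2 called 40 members, 33 of them lowered, and 53.7% of all genes. In bulk RNA, a smaller share of cells that express a gene and less of its RNA per cell cannot be told apart.

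The direction of the small changes depended on the scaling. The values above are relative to trimmed mean of M values (TMM) scaling; when each sample was scaled to its total count alone, the median of all genes moved by 0.10 upward, and 20 members were called raised and 19 lowered, with a median of 0.01. The part of the total held by abundant genes moved with the treatment: genes with a mean count of 3000 or more held 55.9 ± 0.252% of the counts in vehicle and 52.1 ± 0.203% in SCH, and their median log2 fold change was -0.13. The 14 members in that range had a median of -0.08, with 6 lowered and 0 raised (42.9% called), where 73.5% of the 1320 genes in that range were called, 684 lowered and 286 raised. Whether this shift sets the direction of the small changes was not tested.

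**Figure D1:**
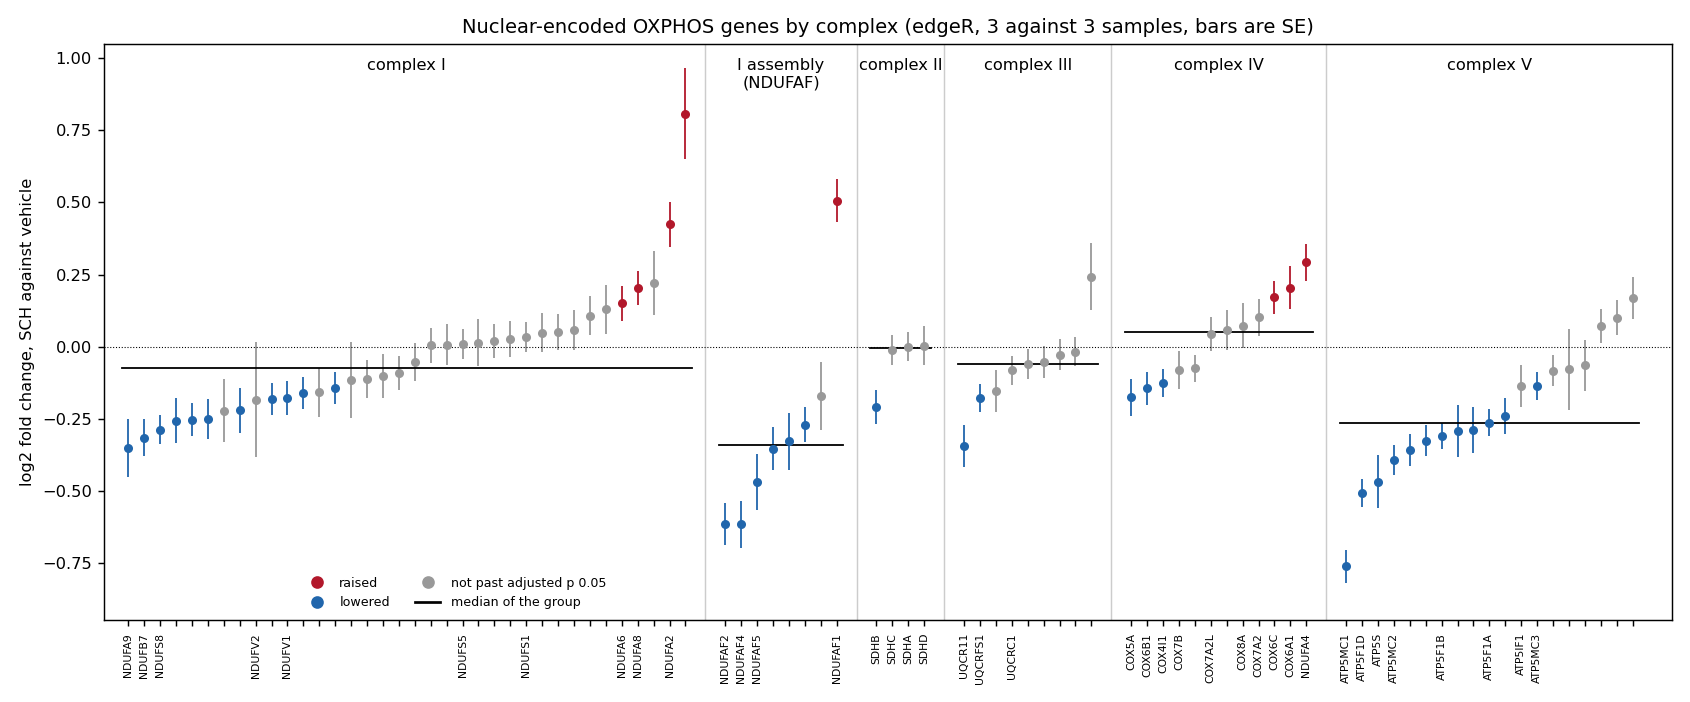
Log2 fold change of the 88 tested members, SCH against vehicle, by complex, with the standard error from edgeR (3 against 3 samples, TMM scaling). Blue and red mark members lowered and raised at an adjusted p under 0.05, grey those that did not pass, and black lines group medians; gene symbols are printed for members named by rule. Complex V and the NDUFAF genes sit lowest (medians -0.26 and -0.34), while the other groups centre near 0, where the sign of the median turns positive for complexes I to III when only the total count is used for scaling.

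The genes stood at widely spaced levels in the vehicle samples. Per length, the highest mean level over the 6 samples was that of ATP5F1B, the catalytic β subunit of ATP synthase, at 622 FPKM (fragments scaled to gene length and depth) in vehicle, followed by NDUFS5, an accessory subunit of complex I, at 330.1, and COX8A, a small subunit of complex IV, at 306.6. The lowest tested members by the mean over the 6 samples were NDUFV2, NDUFA9 and ATP5S, at 1.19, 1.41 and 1.90 FPKM in vehicle; NDUFA13 stood at 1.22 in vehicle and higher with SCH. NDUFV2 encodes a core subunit of complex I, and 28.4% of its exonic bases are shared with another gene, as are 10.6% for NDUFA9 and 20.1% for ATP5S. An annotated pseudogene of NDUFV2 held 163 counts over the 6 samples, beside 345 of the gene itself, so its level may be understated. FPKM was set on the union of all exons, so a gene with long minor transcripts reads low. The median vehicle level of the tested members was 53.4 FPKM for complex IV, 36.3 for complex III, 35.4 for complex V, 22.0 for complex II, 20.3 for complex I and 13.01 for the NDUFAF genes, and the ranges of all groups overlapped.

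**Figure D2:**
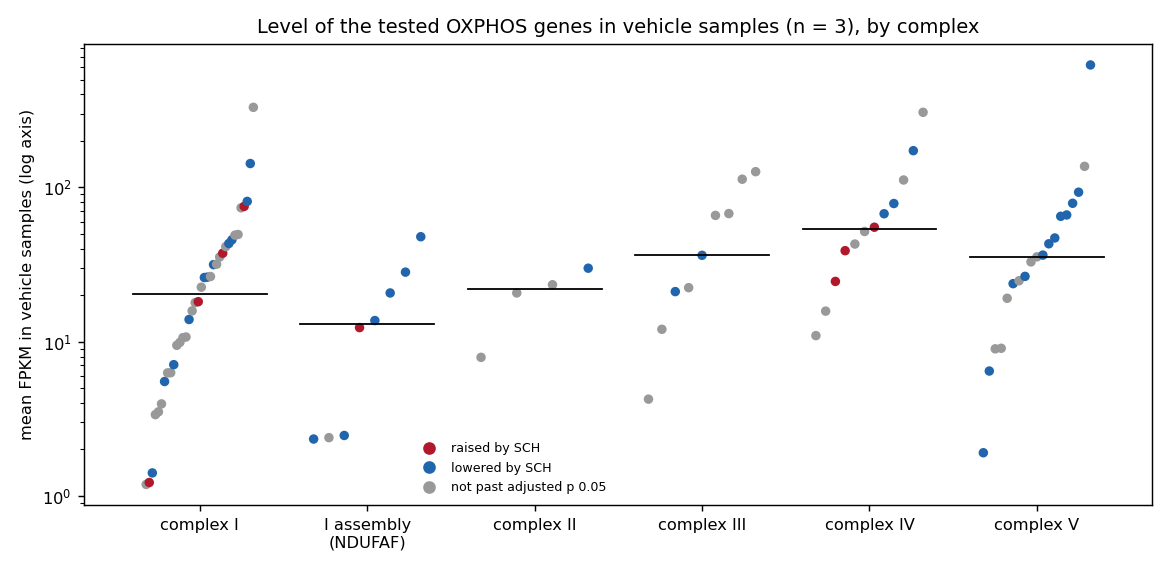
Mean FPKM of each tested member in the 3 vehicle samples, on a log axis, by complex, coloured by its call after SCH; black lines are medians. Members called lowered run from NDUFA9 at 1.41 to ATP5F1B at 622 FPKM.

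Complex V showed the most lowered genes by count, though a larger share of the NDUFAF genes fell (6 of 8). Of 21 complex V members, 19 were tested, 12 were lowered and 0 raised, with a median log2 fold change of -0.26. The share called, 63.2%, was close to the 58.7% of all genes. Scaling to the total count alone left 9 lowered and 3 raised, with a median of -0.16. As a share of all counts, the complex V genes held 0.379, 0.375 and 0.371% in the vehicle samples and 0.326, 0.331 and 0.344% in the SCH samples, and the groups did not overlap. ATP5F1B gave the most counts of any member, and without it the shares were still 0.231 ± 0.00293% in vehicle and 0.209 ± 0.00555% in SCH.

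The largest fall of any member was in the c-ring of ATP synthase, the rotor of identical c subunits that 3 nuclear genes encode. ATP5MC1 gave 119.6, 121.9 and 108.1 CPM in the vehicle samples and 67.2, 68.5 and 70.3 CPM in the SCH samples. The SCH samples lay close together and far below all vehicle samples. Its log2 fold change was -0.76 (SE 0.057), a fall of 41.1% (edgeR, adjusted p = 8.3e-11), and the gene lies at chr17:48892765-48895871 on the plus strand of GRCh38. ATP5MC2 gave 271.5, 272.4 and 276.5 CPM in vehicle and 192.7, 210.0 and 221.9 CPM with SCH, with no overlap (log2 fold change -0.39, SE 0.052). ATP5MC3 moved least, from 166.6 ± 3.55 to 151.5 ± 1.89 CPM (log2 fold change -0.14, edgeR adjusted p = 0.018), and that call was lost with scaling to the total count (adjusted p = 0.56) and without vehicle replicate 1 (adjusted p = 0.12) or SCH replicate 2 (adjusted p = 0.088).

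The makeup of the c-ring transcripts changed with these unequal falls. ATP5MC1 made up 21.3, 21.8 and 19.7% of the counts of the 3 genes in vehicle and 16.4, 16.0 and 15.8% with SCH. The share of ATP5MC3 went from 30.4, 29.4 and 30.02% to 36.6, 35.1 and 34.5%, while that of ATP5MC2 overlapped between the groups. A ratio of counts within a sample does not depend on scaling, and the log2 ratio of ATP5MC1 to ATP5MC3 was 0.62 lower with SCH. This ratio is a description of genes already seen to differ. ATP5MC1 has 7 annotated pseudogenes under its name and ATP5MC2 has 3, and adding the counts of processed pseudogenes left the log2 fold changes at -0.76 and -0.39.

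Of the 5 subunits of the catalytic F1 head, 4 fell (80% called, beside 58.7% of all genes). ATP5F1D, the δ subunit of the central stalk, gave 187.7, 184.9 and 178.0 CPM in vehicle and 132.4, 124.4 and 130.3 CPM with SCH. Its log2 fold change of -0.51 (SE 0.050, edgeR adjusted p = 7.3e-09) was the second largest fall among the members of complex V. ATP5F1C, the γ subunit that turns inside the head, fell by 0.33 on the log2 scale, ATP5F1B by 0.31 and ATP5F1A, the α subunit, by 0.26; none of these overlapped between groups. ATP5F1B, the most counted member, gave 1503, 1526 and 1451 CPM in vehicle and 1160, 1207 and 1248 CPM with SCH. The remaining F1 gene, ATP5F1E, which encodes the ε subunit, did not pass the test (188.0 ± 16.8 and 197.4 ± 11.5 CPM, log2 fold change 0.07).

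**Figure D3:**
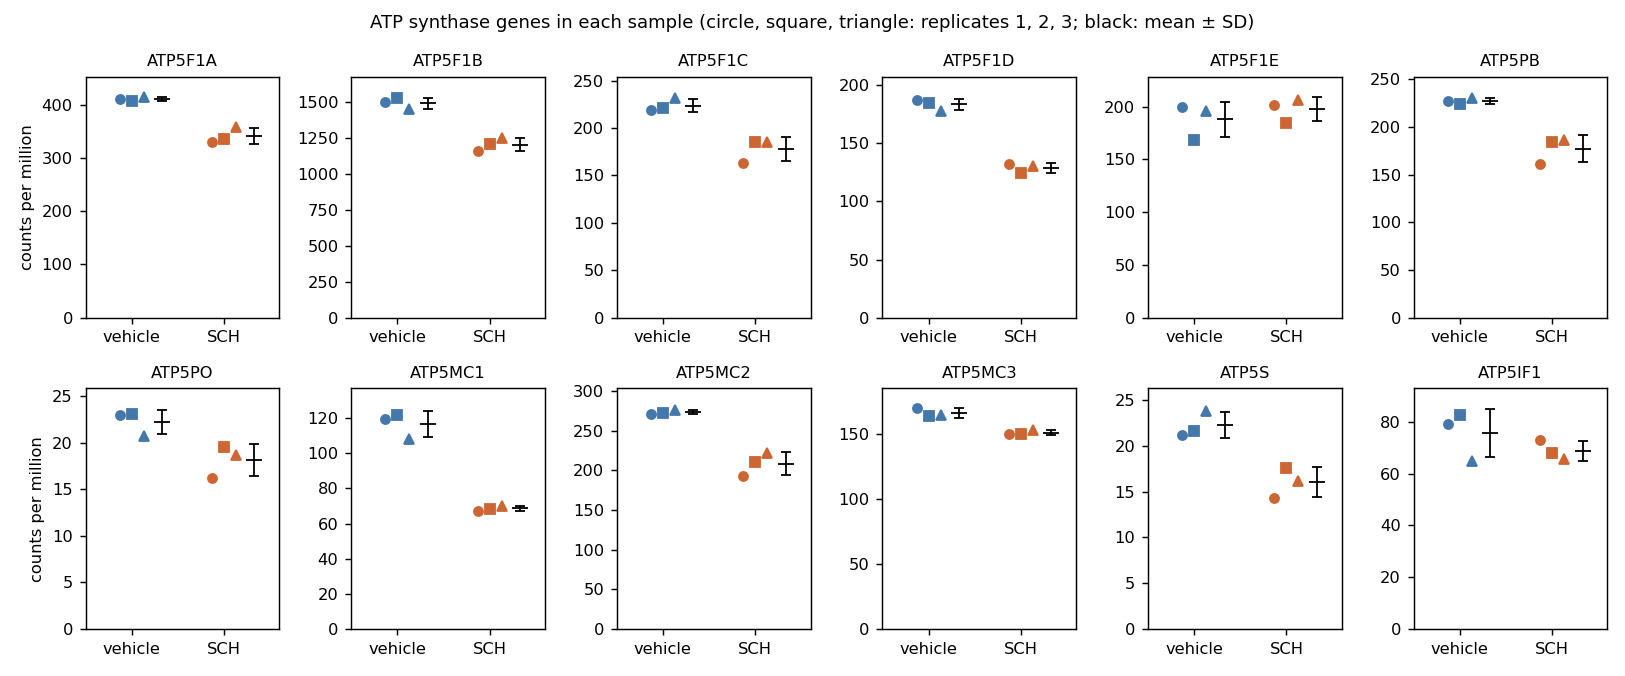
CPM of 12 complex V genes in each of the 6 samples (TMM scaling, axes from 0), with the mean and SD of each group in black. ATP5MC1 shows the largest fall relative to its vehicle level, though not in CPM, while ATP5F1E and ATP5IF1 overlap.

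Among the stalk and membrane subunits of ATP synthase, 4 of 9 fell (44.4% called, beside 58.7% of all genes). ATP5PB, the b subunit of the peripheral stalk, fell from 227.2 ± 2.94 to 177.1 ± 14.2 CPM (log2 fold change -0.36), ATP5PO, the OSCP subunit that joins stalk and head, by 0.29 on the log2 scale, ATP5PF by 0.24 and ATP5MF by 0.29. The groups overlapped for ATP5MF, whose vehicle samples gave 117.4, 124.7 and 89.6 CPM. Of their exonic bases, ATP5PO shares 25.45%, ATP5PF 23.1%, ATP5PB 10.3% and ATP5MF 8.57% with other genes. For ATP5PF these are GABPA and JAM2. ATP5PD, the d subunit of the stalk, leaned the other way (log2 fold change 0.17, edgeR adjusted p = 0.052) and did not pass, nor did ATP5ME, ATP5MG, ATP5MD and ATP5MPL. ATP5IF1, which inhibits the enzyme when it runs in reverse, gave 75.7 ± 9.36 CPM in vehicle and 68.9 ± 3.91 with SCH (edgeR adjusted p = 0.11; 0.0013 without vehicle replicate 3). ATP5S, placed in this group by its symbol and long called coupling factor B, fell from 22.2 ± 1.40 to 16.05 ± 1.64 CPM (log2 fold change -0.47).

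The NDUFAF genes, whose products assemble complex I and are not part of the finished enzyme, mostly fell, while NDUFAF1 rose. Of 8 tested, 6 fell and 1 rose (87.5% called, beside 58.7% of all genes), with a median log2 fold change of -0.34 (5 fell and 1 rose, with a median of -0.24, under scaling to the total count). NDUFAF2, a chaperone of a late assembly step, gave 51.8, 50.1 and 49.2 CPM in vehicle and 29.4, 32.96 and 36.1 CPM with SCH. NDUFAF4, which works with NDUFAF3 on early intermediates, gave 37.2, 33.7 and 37.1 CPM in vehicle and 20.9, 23.3 and 26.2 CPM with SCH. Both fell by 0.62 on the log2 scale with no overlap between groups (edgeR adjusted p = 1.2e-07 and 7.9e-07). NDUFAF5, an enzyme that hydroxylates a complex I subunit, fell by 0.47, and NDUFAF8, NDUFAF6 and NDUFAF3 fell by 0.35, 0.33 and 0.27. NDUFAF7 did not pass (log2 fold change -0.17).

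NDUFAF1, a member of the complex that assembles the membrane arm of complex I, rose. It gave 21.7, 23.8 and 22.9 CPM in vehicle and 32.3, 32.9 and 32.02 CPM with SCH, so that every SCH sample lay above every vehicle sample. The log2 fold change was 0.51 (SE 0.073), or 42.0% higher (edgeR, adjusted p = 2.8e-06). NDUFAF2 had more counts than NDUFAF1 in each vehicle sample and about as many in the SCH samples: the count ratio of NDUFAF1 to NDUFAF2 was 0.419, 0.476 and 0.466 in vehicle and 1.10, 0.998 and 0.888 with SCH. The pair was chosen for its opposite changes, so this ratio is a description. Neither gene shares exonic bases with another gene. NDUFAF2 spans 207.9 kb and NDUFAF6 220.7 kb. Of the 5 tested members over 100 kb, 4 were lowered and 0 raised, with a median log2 fold change of -0.25, where all 2649 tested genes of that span had a median of -0.11, with 65.1% called and 1078 lowered, and 83 shorter members one of -0.08.

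Complex I itself moved little. Of 38 subunit genes, 36 were tested, 11 fell, 4 rose and 21 did not pass, with a median log2 fold change of -0.07; the 15 called are 41.7%, beside 58.7% of all genes. With scaling to the total count 9 rose and 4 fell, with a median of 0.03, and without vehicle replicate 1 only 6 fell. The largest falls in well-counted genes were those of NDUFA9, NDUFB7 and NDUFS8. NDUFA9, an accessory subunit near the coenzyme Q site, gave 14.2, 16.5 and 14.8 CPM in vehicle and 10.8, 12.1 and 12.6 CPM with SCH (log2 fold change -0.35). NDUFB7, an accessory subunit of the membrane arm, gave 83.9, 81.7 and 69.6 CPM in vehicle and 64.0, 63.4 and 61.7 CPM with SCH (log2 fold change -0.32), and NDUFS8, an iron-sulfur core subunit, went from 147.6 ± 5.53 to 120.9 ± 3.29 CPM (log2 fold change -0.29). None of these genes overlapped between groups.

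The other core subunits of complex I were uneven. Of 7 core genes, 3 fell and 0 rose (42.9% called, beside 58.7% of all genes). NDUFV1, which binds FMN and takes electrons from NADH, went from 136.2 ± 9.19 to 120.4 ± 7.03 CPM with overlapping groups (edgeR adjusted p = 0.011; 0.27 with scaling to the total count, and 0.068 to 0.12 without SCH replicate 3 or vehicle replicate 1 or 2). NDUFS1, the largest subunit, gave 120.1 ± 4.46 CPM in vehicle and 122.9 ± 2.18 with SCH and did not pass (95% interval of the log2 fold change -0.07 to 0.13).

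Accessory subunits made up the genes of complex I that rose. NDUFA2 gave 27.5, 31.1 and 25.1 CPM in vehicle and 39.0, 38.0 and 35.4 CPM with SCH, with no overlap (log2 fold change 0.42, SE 0.079, edgeR adjusted p = 6.7e-05). NDUFA8 rose from 65.7 ± 2.97 to 75.6 ± 3.42 CPM. NDUFA6 rose from between 51.95 and 57.9 CPM in vehicle to between 59.3 and 62.6 CPM with SCH, near the threshold (edgeR adjusted p = 0.039, and 0.052 to 0.13 without SCH replicate 1 or 2 or vehicle replicate 1 or 3), and the call was also lost with DESeq2 (0.052) and with upper quartile factors (0.10). NDUFA13, also known as GRIM-19, had the largest rise of all members and is named here after its values were seen, because its mean count of 86.5 kept it out of the rule for named genes. It gave 3.49, 3.29 and 3.49 CPM in vehicle and 6.19, 6.55 and 5.26 CPM with SCH (log2 fold change 0.81, SE 0.157). Its FPKM of 1.22 in vehicle is far below the median of complex I, and 21.0% of its exonic bases are shared with other genes, among them YJEFN3.

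Complex II and complex III changed in few genes. SDHB, the iron-sulfur subunit of succinate dehydrogenase, gave 76.0, 73.8 and 78.8 CPM in vehicle and 62.1, 67.5 and 68.1 CPM with SCH, a log2 fold change of -0.21 (edgeR adjusted p = 0.0037; 0.12 with scaling to the total count). The flavoprotein SDHA (202.7 ± 11.3 and 202.7 ± 4.93 CPM) and the membrane anchors SDHC (115.8 ± 3.39 and 114.8 ± 2.91 CPM) and SDHD (60.7 ± 2.55 and 60.8 ± 5.97 CPM) had log2 fold changes between -0.01 and 0.00. In complex III, 2 of 9 genes fell and 0 rose (22.2% called, beside 58.7% of all genes), with a median of -0.06 (0.04, with 1 lowered and 1 raised, under scaling to the total count). UQCR11, a small subunit, fell from 46.9 ± 4.09 to 36.9 ± 2.18 CPM (log2 fold change -0.35), and UQCRFS1, the Rieske iron-sulfur protein, from 130.3 ± 2.56 to 115.2 ± 1.502 CPM (log2 fold change -0.18; adjusted p = 0.20 with scaling to the total count). UQCRC1, a core protein, did not pass (220.3 ± 11.1 and 208.1 ± 5.63 CPM; adjusted p = 0.022 without vehicle replicate 3). CYC1, the cytochrome c1 subunit of complex III that the symbol rule leaves out, fell from 457.7 ± 44.8 to 331.7 ± 14.5 CPM (log2 fold change -0.46, edgeR adjusted p = 3.5e-07) and is named after its value was seen. UQCRHL (9.56 ± 0.885 and 11.3 ± 1.12 CPM) is a near copy of UQCRH, so its value is uncertain.

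Complex IV changed in both directions, with 3 of 12 tested genes raised and 3 lowered (50% called, near the 58.7% of all genes) and a median log2 fold change of 0.05 (6 raised and 0 lowered under scaling to the total count). The lowered count was 0 or 1 with limma on FPKM, with no filter and without any sample other than vehicle replicate 3. NDUFA4, now placed in complex IV, gave 145.3, 149.9 and 133.7 CPM in vehicle and 153.8, 180.6 and 190.7 CPM with SCH, with no overlap (log2 fold change 0.29, edgeR adjusted p = 0.00046). COX6A1 and COX6C rose by 0.20 and 0.17 on the log2 scale; the vehicle and SCH samples of COX6A1 overlapped, and its call was lost without vehicle replicate 3 (edgeR adjusted p = 0.15) or SCH replicate 1 (0.095), and that of COX6C without SCH replicate 2 or 3 or vehicle replicate 1 (0.052 to 0.081). COX4I1, the most counted subunit, gave 343.1, 346.4 and 313.5 CPM in vehicle and 308.1, 312.2 and 299.2 CPM with SCH (log2 fold change -0.13, edgeR adjusted p = 0.032), and the call was lost with scaling to the total count (adjusted p = 0.71) and when SCH replicate 2 or 3 or vehicle replicate 1 or 2 was left out (0.074 to 0.17). COX5A fell from 114.7 ± 0.665 to 101.4 ± 12.48 CPM and COX6B1 from 167.4 ± 13.9 to 151.4 ± 5.79 CPM, both with overlapping groups, and both calls were lost with scaling to the total count (adjusted p = 0.34 and 0.55). Both were also lost without SCH replicate 1 or 2 or vehicle replicate 1 or 2 (0.051 to 0.24), and that of COX6B1 without SCH replicate 3 (0.055). COX7A2L, a factor that joins complexes III and IV, did not pass (63.4 ± 1.88 and 65.4 ± 2.96 CPM).

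**Figure D4:**
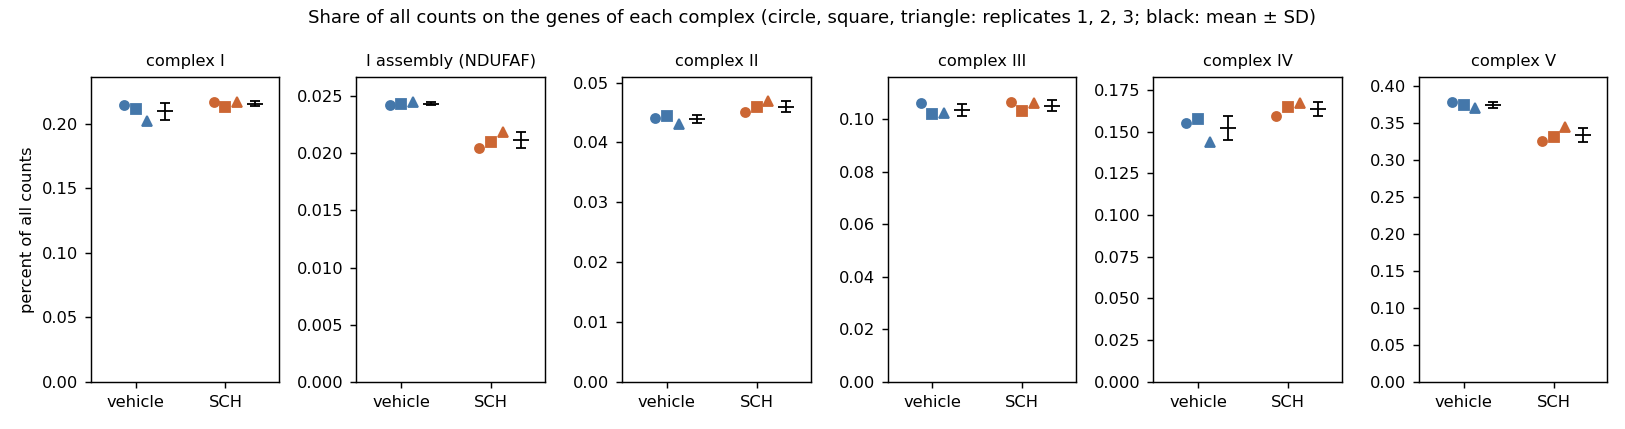
Share of all gene counts held by the members of each complex in each sample, in percent with axes from 0; black marks give the mean and SD of 3 samples. The shares of complex V (0.375 to 0.334%) and of the NDUFAF genes (0.0243 to 0.0211%) are lower in all SCH samples, those of complex II (0.0439 to 0.0460%) and complex IV (0.152 to 0.164%) are higher in all SCH samples, and complexes I and III overlap between groups; being shares of the total, these values carry no TMM scaling.

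Genes with tissue-restricted partners were represented by their common copy. COX4I2 and COX6A2 had 0 counts in every sample, as did ATP5MGL and the read-through gene NDUFC2-KCTD14. A count of 0 allows up to 3 counts in a library, for counting error only. This limit does not hold for NDUFC2-KCTD14, whose exonic bases are all shared with other genes, and covers only the unshared part of COX6A2, which shares 46.0%. COX7A1, the heart and muscle copy, had 3, 5 and 2 counts in vehicle and 2, 3 and 9 with SCH. COX6B2, a testis copy, had 1, 0 and 0 counts in vehicle and 2, 5 and 5 with SCH. COX7B2, COX8C, NDUFA4L2 and ATP5MF-PTCD1 had at most 3 counts in any sample, the last with 93.8% of its exonic bases shared with other genes. NDUFA7, a complex I subunit found in all tissues, was also under the filter, with 11, 11 and 5 counts in vehicle and 5, 2 and 4 with SCH; 33.5% of its exonic bases are shared with another gene. These 11 members were not tested. The partner genes COX7A2 (85.3 ± 3.10 and 91.5 ± 9.48 CPM) and COX7B (49.3 ± 0.744 and 46.6 ± 3.11 CPM) did not pass the test, but COX7A2 passed with scaling to the total count (adjusted p = 0.0093) and without SCH replicate 1 (adjusted p = 0.020).

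Assembly factors outside the NDUFAF names, from a list that earlier results of these data had informed, were called about as often as all genes (63.3 and 58.7%): of 50, 49 were tested, 22 fell and 9 rose, with a median log2 fold change of -0.17. By complex, the share called was 83.3% for the factors of I and of III, 75% for II, 50% for IV and 40% for V. For complex I, 8 of 12 fell and 2 rose. NUBPL, which delivers iron-sulfur clusters to complex I, gave 8.87, 9.02 and 11.9 CPM in vehicle and 2.70, 3.44 and 3.05 CPM with SCH (log2 fold change -1.69, SE 0.157, edgeR adjusted p = 2.8e-09), and DMAC1 went from 14.1 ± 1.18 to 8.84 ± 1.87 CPM. ACAD9, which works in one complex with NDUFAF1, fell by 0.57 on the log2 scale, while NDUFAF1 rose, and is named after its value was seen. For complex III, 1 of 6 rose and 4 fell, led by UQCC2 (log2 fold change -0.56) and LYRM7 (-0.37), and for complex IV 3 of 22 rose and 8 fell, led by COA7 (-0.70) and COX18 (-0.48). Under scaling to the total count 7 of the 12 complex I factors, 3 of the 6 complex III factors and 5 of the 22 complex IV factors were lowered, and without vehicle replicate 1 also 5 of the complex IV factors; the raised complex I factors went to 0 without SCH replicate 3, and to 1 with limma on FPKM or upper quartile factors and without vehicle replicate 1 or 3. The complex II factors had 2 raised and 1 lowered of 4, with 1 raised under DESeq2, upper quartile factors and no filter and without SCH replicate 1 or 2 or vehicle replicate 1 or 3. For complex V, ATPAF1, which assembles the F1 head, fell by 0.23 and TMEM70 rose by 0.16, and the other 3 did not pass; the call of ATPAF1 was lost with scaling to the total count (adjusted p = 0.11) and that of TMEM70 without SCH replicate 2 or 3 or vehicle replicate 1 or 2 (0.070 to 0.098).

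Regulators of mitochondrial gene expression were lowered in 9 of 12 cases, with 0 raised (75.0% called, beside 58.7% of all genes, of which 29.4% lowered) and a median of -0.28 (6 lowered and 2 raised under scaling to the total count). PPARGC1B, a coactivator of the PGC-1 family, gave 13.2, 12.7 and 12.3 CPM in vehicle and 3.10, 2.36 and 2.94 CPM with SCH. Its log2 fold change of -2.19 (SE 0.137, edgeR adjusted p = 3.5e-12) was larger in size than that of any OXPHOS member, but it was -0.69 with limma on log2(FPKM + 1), a scale that understates changes of low genes, where NUBPL stood at -0.70. PPRC1, of the same family, fell from 140.2 ± 5.62 to 83.8 ± 2.50 CPM (log2 fold change -0.74). PPARGC1A, the best known member of the family, was low in both groups (4.67 ± 0.0929 and 4.24 ± 0.405 CPM) and did not pass.

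Among the transcription machinery of the mitochondrial genome and the factors that bind nuclear OXPHOS promoters, falls were smaller and 2 factors did not pass. TFB1M, TFB2M, POLRMT and TFAM fell by 0.69, 0.38, 0.33 and 0.15 on the log2 scale. NRF1, an activator of many respiratory genes, fell from 26.5 ± 1.21 to 20.6 ± 0.545 CPM (log2 fold change -0.36, edgeR adjusted p = 0.00032), GABPB1 by 0.24 and YY1 by 0.16. The calls of TFAM, YY1 and GABPB1 were lost with scaling to the total count (adjusted p = 0.45, 0.31 and 0.14) and without SCH replicate 2 (0.065, 0.052 and 0.051), that of GABPB1 also without vehicle replicate 3 (0.056), and that of TFAM without SCH replicate 1 or vehicle replicate 1 or 3 (0.05 to 0.065). GABPA, the DNA-binding partner of GABPB1, had a log2 fold change of 0.18 (edgeR adjusted p = 0.061) and the nuclear receptor ESRRA one of 0.08, and neither passed. ESRRA passed with scaling to the total count (adjusted p = 0.028) and without SCH replicate 2 (0.044), and GABPA under several alternatives (adjusted p = 0.0051 with scaling to the total count, 0.015 without SCH replicate 1 and 0.011 without vehicle replicate 3).

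**Figure D5:**
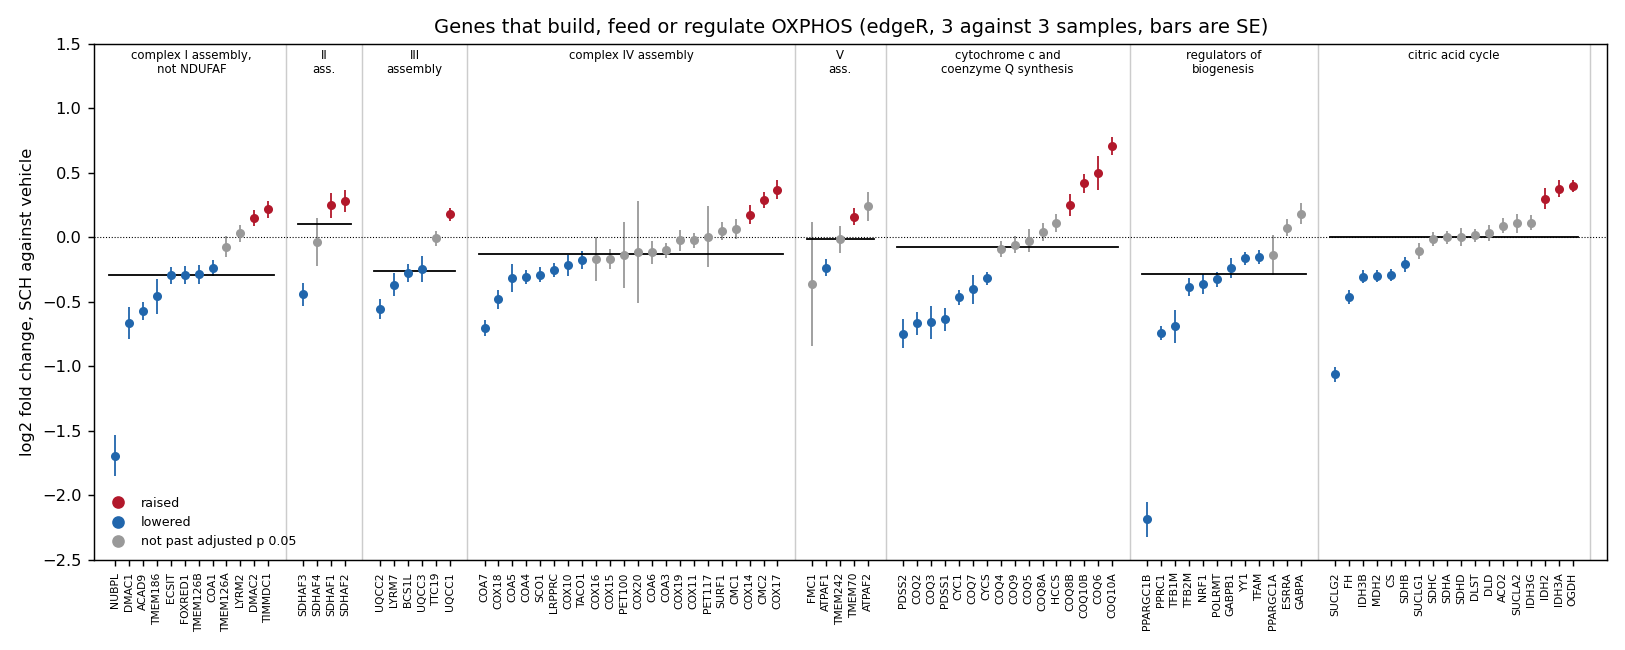
Log2 fold change with standard error (edgeR, 3 against 3 samples, TMM scaling) of genes that assemble the complexes, make cytochrome c or coenzyme Q, regulate mitochondrial biogenesis or belong to the citric acid cycle; colours mark calls and black lines medians. PPARGC1B (-2.19) and NUBPL (-1.69) lie lowest, and COQ10A (0.71) highest.

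The mobile carriers and the cycle that feeds the chain were mixed, and their genes were called at shares near the 58.7% of all genes (68.8% and 50%). Of 16 genes for cytochrome c and coenzyme Q, 7 fell and 4 rose. PDSS2, which builds the coenzyme Q tail, fell by 0.75 on the log2 scale, and COQ10A, a coenzyme Q-binding protein, rose from 27.0 ± 1.33 to 44.1 ± 3.14 CPM (log2 fold change 0.71). Of 18 citric acid cycle genes, 6 fell and 3 rose (5 and 7 under scaling to the total count); SUCLG2, a subunit of succinyl-CoA ligase, fell from 92.1 ± 2.79 to 44.1 ± 0.924 CPM (log2 fold change -1.06), and FH, fumarase, fell by 0.46. Of the 13 protein genes of the mitochondrial genome, 8 fell and 0 rose (6 and 1 under scaling to the total count, and up to 2 rose without SCH replicate 1; 61.5% called, near the 58.7% of all genes), the largest fall being that of MT-ATP6, a membrane subunit of ATP synthase (4080 ± 98.96 and 2513 ± 326 CPM, log2 fold change -0.70).

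Promoter letters were counted in windows of 250 bases before to 50 after each RefSeq start, and 78 of the 99 members had at least 1 window. Among the 72 tested members with a window, 23.6% held the NRF1 letters, 31.9% the GABPA letters and 9 of the 72 the YY1 letters, and 56.9% held at least 1 of them. Over 10790 tested genes with a window these shares were 13.3, 22.3, 4.56 and 35.2%, and over all 27305 genes they were 6.98, 12.2, 2.14 and 19.0%. Split by call, 16 of 28 lowered members (57.1%), 4 of 6 raised members and 21 of 38 that did not pass (55.3%) held at least 1 set of letters. In the sequences printed above, ATP5F1C, ATP5PO, UQCRFS1 and NDUFA9 fell and carry the NRF1 letters 22, 24, 31 and 80 bases before the start. NDUFAF5 also fell and NDUFA8 rose, and both have a match across the start that begins 4 bases before it. UQCRC1 and SDHA, which carry the letters 47 and 166 bases before the start, did not pass. The 120 bases printed for ATP5MC1, NDUFAF1, NDUFAF2 and NDUFAF4 hold none of these letters, though NDUFAF4 has a match to the GABPA letters elsewhere in its 300-base window. A match is a description of the sequence and not evidence of binding.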

How the data were processed

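Per the labels and the study's methods, poly(A) RNA was sequenced on an Illumina HiSeq; the submitters' processing notes name CASAVA 1.8, HISAT2 2.0.5, featureCounts 1.5.0-p3, DESeq2 1.20.0 and GRCh38. The deposited files hold raw counts per gene and, per sample, the authors' FPKM, which follow counts and union exon length. Beside scaling to the total count, these FPKM carried a further factor that was the same across genes. It was 1.006, 1.008 and 0.995 in the vehicle samples and 0.941, 0.937 and 0.937 in the SCH samples. Fits on FPKM are therefore not scaled to the total count alone. Strandedness and the handling of shared reads are not given in the sources used here. All 58735 gene IDs matched GENCODE release 29. Columns of the authors' own comparison (fold changes and p-values) were not used. Counts were fitted in edgeR 4.0.16 (R 4.3.3, filterByExpr, TMM, glmQLFit and glmQLFTest, Benjamini-Hochberg threshold 0.05 over 14736 genes, 3 against 3 samples); the biological coefficient of variation was 5.17%. CPM are TMM-scaled. Alternatives were DESeq2 1.42.0, limma 3.58.1 on log2(FPKM + pseudocount of 1 or 0.1) of the deposited FPKM, other scalings, no filter, other thresholds, and each sample left out. The letters of NRF1, GABPA and YY1 sites were searched in RefSeq promoters, with every window of a gene counted. The fit was also run on simulated data, and the outcome is not reported here. The symbol rule, the complexes (NDUFA4 and NDUFA4L2 under IV) and all gene lists were chosen with earlier results of these data known. Named genes were, per complex, the 3 largest called rises and falls (no overlap between groups, minimum mean count 100), fixed core subunits, paralog families, the 3 highest and lowest levels, the 2 largest changes of each neighbouring list and all regulators; others are named after their values were seen. Among members, 46 share no exonic bases with another gene and 37 share over 10%. Annotated pseudogenes stand under the names of 47 members. The largest pseudogene counts over the 6 samples were those for SDHA (1598, beside 22370 of the gene) and COX6A1 (806, beside 9106). Replicates of a group correlated at 0.992 to 0.994 (log2 CPM) and differed by more than counting noise. Some values are not reported here.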

Additional observations from a re-analysis of the deposited data

How the results depend on the processing

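Among the 67 named genes that were tested, 39 had the direction and call reported above in every refit (other tools, scalings, filters, the replicate block and each sample left out) and 28 did not. None of the 52 called ones changed sign. The stricter thresholds below were applied to the counts only. DESeq2 called 40 members, all also called by edgeR. Scaling to library size alone gave 20 members raised and 19 lowered (median 0.00598), complex I 9 raised and 4 lowered (median 0.0296), complex V 3 raised (median -0.162), an NDUFAF median of -0.239, medians of 0.0969 for complex II, 0.0424 for III, 0.0866 for complex V assembly and 0.0281 for cytochrome c and coenzyme Q, and log2 fold changes of 0.103 for SDHA, 0.0909 for SDHC, 0.0207 for UQCRC1 and 0.0218 for COX7B. An adjusted p under 0.01 left 5 members raised and 7 complex I genes lowered. An absolute log2 fold change of at least 0.5 left 3943 of all genes, 2 members raised and 4 lowered, complex I with 1 raised and 0 lowered, 2 NDUFAF genes lowered and 2 complex V genes lowered. Leaving out members that share over 10% of exonic bases, an alternative chosen after seeing the data, gave 5 raised (2 in complex I) and a complex IV median of -0.0152. Relative log expression factors gave 1 raised gene in complex V and SDHA at 0.003951 (DESeq2 0.003943). No filter gave 1 raised gene in complex V, medians of 0.0115 for complex II and 0.001104 for complex V assembly, SDHA at 0.0175 and SDHC at 0.0055. Upper quartile factors put SDHD at -0.0286, NDUFS5 at -0.0236 and the citric acid cycle median at -0.0307, and at least 10 counts in every sample put them at -0.001546 for SDHD and -0.003537 for the cycle, with complex V assembly at 0.0674. With limma on log2(FPKM + 0.1) and log2(FPKM + 1), SDHA stood at 0.007847 and 0.007513 and the complex II median at 3.559e-05 and 0.0002646. Calls were also lost under limma on both FPKM scales for COX4I1, NDUFV1, COX5A, COX6A1 and COX6B1 (adjusted p = 0.052 to 0.10), with no filter for COX4I1, COX6B1, ATP5MC3 and TFAM (0.054 to 0.094), with DESeq2 for COX6B1 (0.051), and with upper quartile factors for COX6A1 (0.052) and TMEM70 (0.084). ATP5IF1 passed with upper quartile factors (0.046), GABPA with no filter (0.045), and NDUFS1 and COX7A2L with scaling to library size (0.026 and 0.035). Apart from the settings that test fewer genes or ask for larger changes, the cause was not tested.

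The replicate numbers did not pair the samples: deviations of same-numbered samples correlated at 0.042, -0.022 and 0.018. A replicate block gave 10 members raised and 35 lowered, with 1 complex V gene raised, GABPA past the threshold (0.046), SDHA at 0.0009168 and SDHD at -8.017e-06.

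Leaving out 1 sample gave 6 to 13 lowered genes in complex I (6 without vehicle replicate 1) and 0 to 1 raised in complex V. Medians ranged from -0.0328 to 0.000762 in complex II, -0.0412 to 0.0729 in complex IV, -0.0452 to 0.0617 for complex V assembly and -0.013 to 0.0232 for the citric acid cycle. Log2 fold changes of genes not called above ranged from -0.0435 to 0.0337 for SDHA, -0.0215 to 0.0148 for SDHC, -0.0479 to 0.0838 for SDHD, -0.0517 to 0.184 for COX8A, -0.0397 to 0.0485 for NDUFS5 and -0.0242 to 0.169 for ESRRA; COX8A passed without vehicle replicate 2 (adjusted p = 0.035) and ESRRA without SCH replicate 2 (0.044). With 3 samples a group, members under a mean count of 300, such as NDUFV2 (standard error 0.199), are less precise than most.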
